A study of Capra hircus with 3 samples.

Results

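The endoplasmic reticulum (ER) chaperones and the unfolded protein response were followed in the lactating goat mammary gland through 10 genes: the chaperones HSPA5, HSP90B1, CALR and PDIA4, the stress sensors ERN1, EIF2AK3 and ATF6, and the transcription factors XBP1, ATF4 and DDIT3. They were chosen by symbol, and each was found as the row that carries its goat NCBI gene ID. All 10 were found among the 13023 protein-coding genes with deposited values, each at a single locus and each above 0 in all 3 libraries. The RNA came from mammary gland of Laoshan dairy goats that were 4 years old and in the third lactation, without any treatment other than the anaesthesia used for surgical sampling. Tissue was taken 10, 90 and 210 days after kidding, and the RNA of 5 goats was pooled in equal parts into 1 library per stage. The methods describe 5 goats and 15 tissue samples, so the stages appear to share their animals, but values of single goats are lost in the pools. The libraries are named here by their sample labels: E for early lactation, P for peak lactation and L for late lactation. Since each stage is 1 pool sequenced as 1 library, the spread between goats or libraries cannot be estimated. No test was possible, no p-value is given, and every difference between libraries below is without a replicate check.

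Proteins that a cell secretes are folded in the ER, where chaperones hold them until they are correctly folded and disulfide bonded. When unfolded proteins accumulate, 3 sensors in the ER membrane signal to the nucleus. ERN1 (also called IRE1) splices the mRNA of XBP1, EIF2AK3 (PERK) phosphorylates eIF2 and thereby favours translation of ATF4, and ATF6 is cut in the Golgi to release a transcription factor. Together they raise chaperones, degradation of misfolded proteins and, under lasting stress, the apoptosis-associated factor DDIT3 (CHOP). The secretory epithelium of the lactating mammary gland exports large amounts of caseins and whey proteins through this compartment.

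The values are FPKM, which are normalized to transcript length and to mapped reads, so levels of different genes can be set side by side. The read numbers behind each value are not known, so no confidence interval is given. Bulk RNA also cannot tell fewer cells of a type from less RNA per cell. Which column is peak and which is late rests on the sample labels alone. For most of the annotated lncRNA genes that could be matched, the direction between these columns was opposite to that in the study's own lncRNA table, so the 10 genes were also compared with both columns exchanged. The values of the other genes are given with the columns as labelled, and P and L would trade places in them too. As a check of the tissue, the casein gene CSN1S1 had 25057 FPKM in E, and the luminal epithelial genes KRT8 and KRT19 had 126 and 439 FPKM.

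A limit on XBP1 comes before the results. On the ARS1.2 assembly, by its RefSeq genes, XBP1 lies between ZNRF3 and CCDC117. In the deposited values, however, its row lies on scaffold NW_005100622.1 from 4047514 to 4285394, a span of 237881 nt that is also listed for CARF and NBEAL1. CCDC117 and ZNRF3 lie on another scaffold, NW_005100861.1. The 20 loci deposited between them had no gene ID and no more than 4.32 FPKM in any library. The values under XBP1 are therefore those of a row whose neighbours are not those of XBP1, and they cannot be taken as the level of XBP1 in this tissue. ATF6 and DDIT3 also share their locus with other entries, ATF6 with the pseudogene LOC102183742 and DDIT3 with MARS, its neighbour in the gene table. The other 7 genes had a locus of their own.

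The chaperones were among the most abundant protein-coding transcripts in each library. HSPA5 (BiP), the ER Hsp70 that also keeps the sensors inactive, is listed on scaffold NW_005100783.1 from 2231694 to 2236038. It had 208 FPKM in E, 158 FPKM in P and 226 FPKM in L. It was thus lowest in P, at 0.757 times the level in E (log2 ratio -0.40), and L was 1.08 times E (0.12). CALR (calreticulin), a lectin chaperone that binds glycoproteins and calcium, is listed on NW_005100712.1 from 1614690 to 1618393. It had 262, 234 and 298 FPKM in E, P and L. It was the most abundant of the 10 genes in each library and, like HSPA5, lowest in P and highest in L, with a log2 ratio of -0.16 for P over E and 0.19 for L over E.

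PDIA4 (ERp72), a disulfide isomerase, is listed on NW_005100656.1 from 21672002 to 21684394 and had 89.6 FPKM in E, 74.9 FPKM in P and 131 FPKM in L. Among the 10 genes it had the widest difference between any 2 libraries, with L at 1.76 times P (log2 ratio 0.81) and at 1.47 times E (0.55). HSP90B1 (GRP94), the ER member of the Hsp90 family, is listed on NW_005100669.1 from 8597753 to 8615085. It had 152 FPKM in E, 169.7 FPKM in P and 167 FPKM in L. It was the only one of the 4 chaperones that was not lowest in P, and its highest value was 1.11 times its lowest.

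The balance between chaperones differed between libraries, a comparison that no scaling of a library can alter. HSPA5 was 1.37 times HSP90B1 in E and 1.35 times in L, but 0.929 times in P. PDIA4 was 0.589 times HSP90B1 in E, 0.441 times in P and 0.788 times in L. By rank among the 13023 protein-coding genes, HSPA5 stood at 144, 139 and 129 in E, P and L, and CALR at 123, 96 and 97. PDIA4 stood at 357, 317 and 237 and HSP90B1 at 201, 134 and 191. The ranks of HSPA5, CALR and PDIA4 in P were therefore not below those in E, although their FPKM were.

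**Figure D1:**
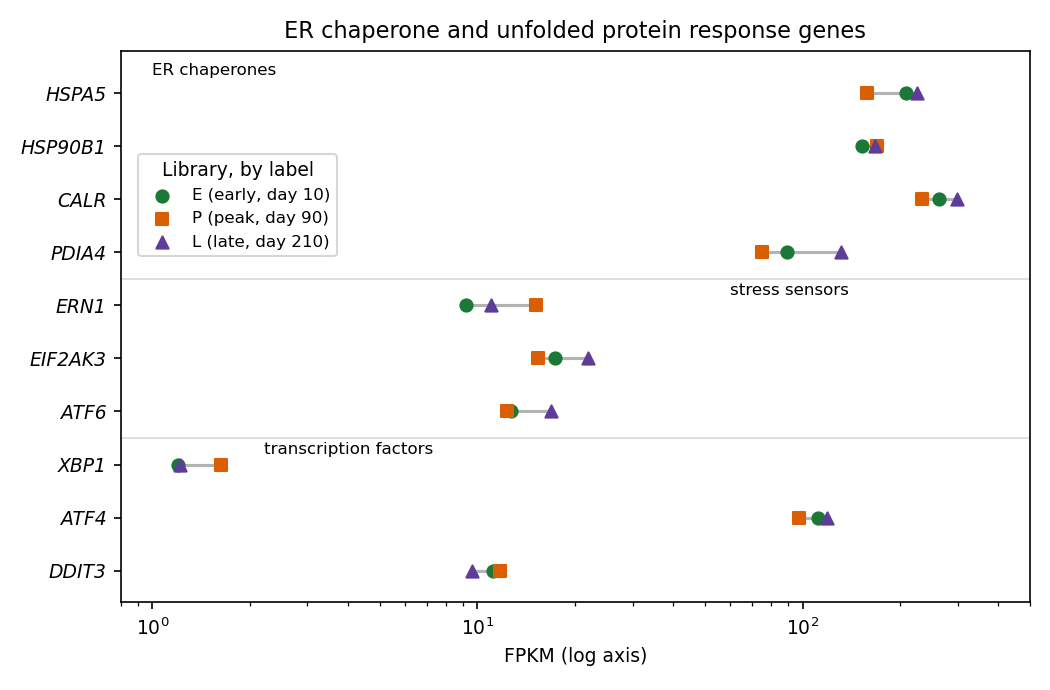
FPKM of the 10 genes on a log axis, with 1 point per library (E, circle; P, square; L, triangle) and a grey line from the lowest to the highest value; there are no error bars, since each stage is 1 library. The 4 chaperones and ATF4 lie between 74.9 and 298 FPKM, the 3 sensors and DDIT3 between 9.23 and 21.9 FPKM, and the row listed as XBP1 below 2 FPKM.

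The sensors were less abundant than the chaperones, and ERN1 ran differently from the other two. EIF2AK3, listed on NW_005100774.1 from 13723330 to 13805776, had 17.4 FPKM in E, 15.3 FPKM in P and 21.9 FPKM in L. ATF6, listed on NW_005100628.1 from 1114224 to 1353981, had 12.7, 12.3 and 16.8 FPKM. Both were lowest in P and highest in L, at 1.43 and 1.37 times P. The pseudogene LOC102183742 at the ATF6 locus had 16.5, 9.09 and 15.5 FPKM, and how reads were divided between the entries was not tested.

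ERN1, listed on NW_005100886.1 from 23992736 to 24046487, had 9.23 FPKM in E, 15.1 FPKM in P and 11.0 FPKM in L. It was highest in P, at 1.64 times E (log2 ratio 0.71), which was the widest difference of any of the 10 genes between E and P. EIF2AK3 was 1.88 times ERN1 in E and 1.99 times in L, but 1.01 times in P. ERN1 ranked 5336 in E and 3019 in P, while EIF2AK3 ranked 2892 and 2974.

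Of the transcription factors, ATF4 was abundant and DDIT3 was not. ATF4, the activator of amino acid supply and stress genes, is listed on NW_005100677.1 from 2841679 to 2843692. It had 111 FPKM in E, 97.4 FPKM in P and 119 FPKM in L, and its highest value was 1.22 times its lowest. Its mRNA level does not give its protein level, which is set in large part at translation. DDIT3, listed on NW_005100668.1 from 5930462 to 5953851, had 11.2 FPKM in E, 11.7 FPKM in P and 9.62 FPKM in L. It was the only gene of the 10 that was lower in L than in E, with a log2 ratio of -0.22. MARS at the same locus had 19.6, 19.1 and 23.6 FPKM. ATF4 was 9.94 times DDIT3 in E, 8.32 times in P and 12.3 times in L. The row listed as XBP1 had 1.20, 1.63 and 1.21 FPKM and ranked 11438, 11381 and 11144. CARF at that locus had 7.84, 8.35 and 7.46 FPKM and NBEAL1 had 14.2, 17.3 and 12.7 FPKM, so all 3 rows of the locus were highest in P.

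Between P and E none of these genes reached a 2-fold difference (0 of 10), where 17.7% of all protein-coding genes did. The number was also 0 between L and E, against 8.71% of all genes, and 0 between L and P, against 25.9%. By direction, 10.9% of all genes were at least 2-fold higher in P and 6.80% in E, 1.97% were higher in L and 6.74% in E, and in the last comparison 8.56% were higher in L and 17.4% in P. At a fold of at least 1.5, ERN1 alone differed between P and E (36.8% of all genes), none of the 10 between L and E (17.8%) and PDIA4 alone between L and P (44.0%). These counts come without replicates, and the 10 genes were picked by name, so the lower shares among them are given as a description. Between P and E, 6 of the 10 genes were lower in P, beside 52.1% of all genes that reached 1 FPKM in each of the libraries compared. The median log2 ratio of the 10 genes was -0.10, and that of all genes was -0.026. Between L and E, 9 of the 10 were higher in L, beside 48.2% of all genes, with a median of 0.16 against -0.013 over all genes. Between L and P, 6 were higher in L, with a median of 0.32 against 0.034. The row listed as XBP1 is counted among the 10, with log2 ratios of 0.44 for P over E, 0.018 for L over E and -0.42 for L over P. The comparisons share libraries and are not independent.

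Ratios between L and E were narrow over the whole transcriptome, with the middle 50% of genes between -0.23 and 0.16 on the log2 scale. In that comparison PDIA4 stood at the 96.5th percentile, ATF6 at the 93.2nd and EIF2AK3 at the 89.9th. Between P and E, ERN1 stood at the 87.5th percentile and HSPA5 at the 23.5th, and 7 of the 10 genes lay within the middle 50%.

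**Figure D2:**
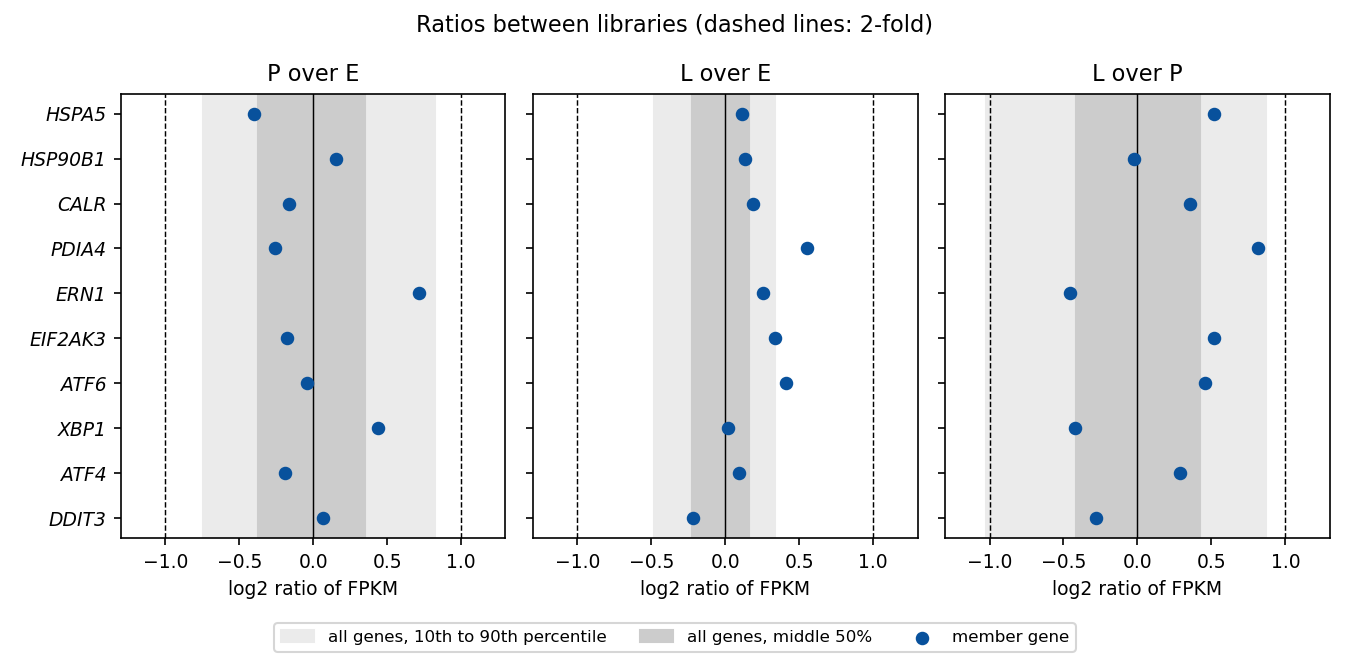
Log2 ratio of FPKM of each of the 10 genes (points) for P over E, L over E and L over P, with the 10th to 90th percentile (light grey) and the middle 50% (dark grey) of all protein-coding genes that reached 1 FPKM in each of the libraries compared, and dashed lines at 2-fold. No point reaches a dashed line; the points farthest from 0 are PDIA4 for L over P (0.81) and ERN1 for P over E (0.71).

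The direction between P and the other libraries depended on how the libraries were scaled. The sum of FPKM over protein-coding genes was 478221 in E, 275836 in P and 421182 in L. The milk protein genes CSN1S1, CSN3, LALBA and PAEP made up 205430, 58218 and 149949 FPKM of it, with LALBA at 0 in L. When the sum over protein-coding genes was set equal in all libraries, P over E was raised by 0.79 on the log2 scale. All 10 genes were then higher in P than in E, and ERN1 and the row listed as XBP1 passed 2-fold. Most of all protein-coding genes at 1 FPKM or more in both libraries were then higher in P too. Their 10th percentile for P over E was -0.75 before this shift. L over P was lowered by 0.61, and PDIA4 alone of the 10 was then higher in L than in P. Most of all genes were then lower in L as well, since their median for L over P was 0.034 before this shift. Under scaling to the same upper quartile or to the same sum over all loci, ATF6 alone changed direction between P and E, and no gene passed 2-fold. The direction between L and E was the same for all 10 genes under both sums, and under the upper quartile it changed only for the row listed as XBP1. With the columns labelled peak and late exchanged, the ratios to E trade places and those between P and L change sign. PDIA4 would then be 1.47 times E at peak and 0.836 times E at late lactation, and ERN1 1.20 times E at peak and 1.64 times at late.

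Milk protein genes, the main cargo of the ER in this tissue, differed far more than the chaperones between P and the other libraries. Between L and E this did not hold for the sum given here. CSN1S1, CSN3 and PAEP (beta-lactoglobulin) together had 135377 FPKM in E, 43004 FPKM in P and 149949 FPKM in L. For this sum P was 0.318 times E and L was 1.11 times E. The 4 chaperones together had 712, 636 and 823 FPKM, so P was 0.893 times E and L was 1.15 times E. For each FPKM of the 4 chaperones there were 190.1 FPKM of these milk protein genes in E, 67.6 in P and 182 in L. LALBA was left out of the sum, as it was listed at 0 in L, beside 70053 FPKM in E and 15214 FPKM in P. CSN1S2 and CSN2 had no row under their symbols and were not analysed here.

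Markers of other cells also differed between the libraries. Of 11 plasma cell markers, 10 were higher in P than in E and 5 at least 2-fold, among them MZB1, an ER protein of antibody-secreting cells, with 50.8 FPKM in P and 11.4 FPKM in L, a log2 ratio of 1.76 for P over E. The plasma cell list also holds DERL3, FKBP11 and the row listed as XBP1, which appear among the ER genes described here. The other 8 together had 308 FPKM in E, 558 FPKM in P and 369 FPKM in L, a sum made mostly of JCHAIN, the joining chain of secreted antibodies. Without JCHAIN the remaining 7 had 42.1, 129.5 and 32.3 FPKM, so P was 3.08 times E and L was 0.767 times E. All 8 macrophage markers were higher in P than in E and lower in L than in E, with summed FPKM of 186, 320 and 98.1, and none was at 0. None was 2-fold higher in P, and 3 were at least 2-fold lower in L than in E. Of all genes, 51.8% were lower in L than in E among those at 1 FPKM or more in both, and 6.74% at least 2-fold. The 9 luminal epithelial markers together had 1709, 1197 and 1641 FPKM, of which ELF5, a transcription factor of the milk-secreting cells, had 879, 244 and 875 FPKM. The lower sum in P rests on ELF5, since the other 8 had 830.0, 954 and 766 FPKM. KRT7, KRT8 and KRT18 were higher in P than in E, with log2 ratios of 1.04, 0.64 and 0.61. CLDN4 and CDH1 were also higher in P (0.27 and 0.20), while CLDN3, EPCAM and KRT19 were lower (-0.46, -0.37 and -0.087). None of the 6 endothelial markers differed at least 2-fold in any comparison. Of all genes, 17.7% did so for P over E, 8.71% for L over E and 25.9% for L over P. Among the 8 myoepithelial markers only OXTR, the oxytocin receptor, differed at least 2-fold between P and E (log2 ratio -1.74). Among the 7 fibroblast markers COL1A2 and COL3A1 were lower in P (-1.07 and -1.06) and PDGFRA and FBLN1 higher (1.03 and 1.26). By this measure 6.80% of all genes were lower in P than in E and 10.9% higher. The adipocyte markers summed to 22.0, 8.40 and 10.5 FPKM, with 1 of the 5 at 0 in a library. Between L and E, 4 of the 5 were at least 2-fold lower in L, with PLIN4, at 0 in L, among them, beside 6.74% of all genes. The part of these cells in the values of the 10 genes was not tested.

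**Figure D3:**
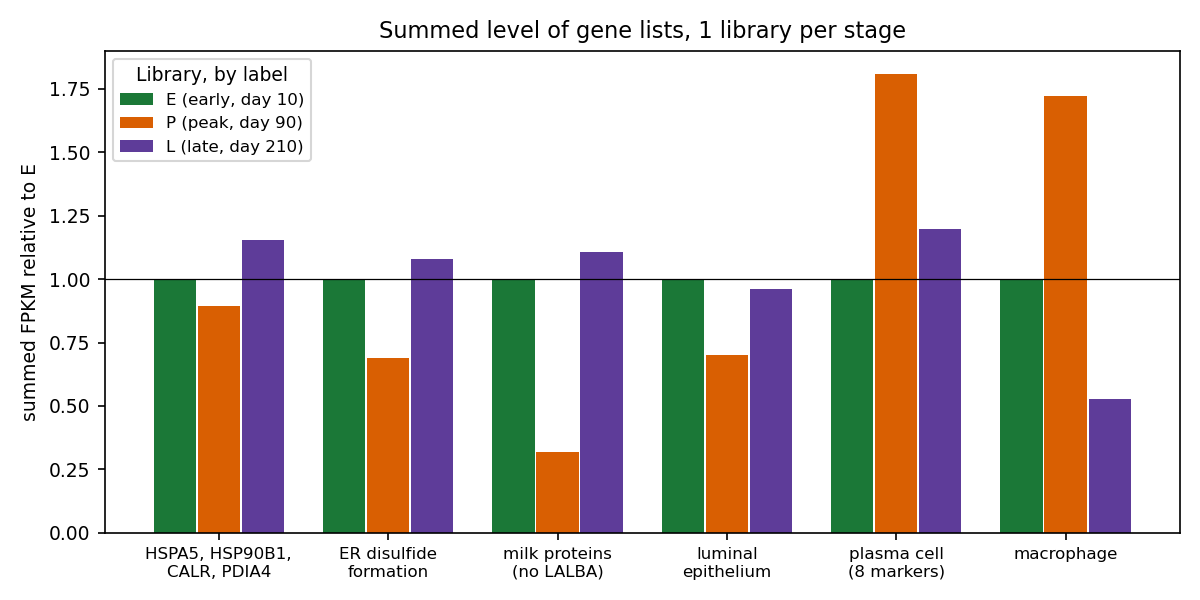
Summed FPKM of 6 gene lists in each library, divided by the sum in E (bars from 0, 1 library per stage and no error bars). In P the 4 chaperones stand at 0.893 and the milk protein genes at 0.318 of E, while the plasma cell and macrophage markers stand at 1.81 and 1.72; without JCHAIN the plasma cell value is 3.08, and the luminal value below 1 rests on ELF5.

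In the values as deposited, most genes of the wider ER folding machinery were, like HSPA5, lower in P than in E and higher in L than in E. From 4 lists of other chaperones, disulfide enzymes, glycan quality control and ER-associated degradation, 65 of 69 genes were measured, and CANX, SERP1, MAN1B1 and SELENOK were not. Between P and E, 7 of the 65 were at least 2-fold lower in P and 1 was at least 2-fold higher, together 12.3% against the 17.7% of all genes. Between L and E only CLGN, a chaperone at 0.266 FPKM in E and 1.74 FPKM in L, differed at least 2-fold. Of all genes 8.71% did so. Of the 65 genes, 47 were below a ratio of 1 in P over E, with a median log2 ratio of -0.28, and 53 were above it in L over E, with a median of 0.16. Under the scaling to the sum of protein-coding genes 8 of the 65 were lower in P than in E, and 61 were higher in L than in E. The 2-fold calls between P and E turned to 0 lower and 13 higher. That scaling raises P over E by 0.79 for all genes alike, so most of all genes stood higher in P under it as well. With the upper quartile, 46 were lower in P and 48 higher in L.

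Among the other chaperones and co-chaperones, 15 of 18 were lower in P than in E and 2 at least 2-fold. Of all genes, 52.1% were lower among those at 1 FPKM or more in both, and 6.80% at least 2-fold. With the same sum over protein-coding genes, 3 of the 18 were lower, 0 at least 2-fold, and 2 were at least 2-fold higher. PPIB (cyclophilin B), a prolyl isomerase and the most abundant of the 18, had 341, 239 and 332.5 FPKM in E, P and L. SDF2L1, a partner of the HSPA5 co-chaperones, had 33.7, 14.2 and 43.9 FPKM, a log2 ratio of -1.25 for P over E and 1.63 for L over P. CRELD2, an ER stress gene of disulfide exchange, had the log2 ratio of L over E farthest from 0 among those that reached 1 FPKM in each (0.54). Of the 15 disulfide genes, 3 were at least 2-fold lower in P than in E, namely ERO1A, ERP29 and PRDX4, and ERO1B was at least 2-fold higher. Over all genes 6.80% were lower and 10.9% higher by this measure. With the same sum over protein-coding genes 0 of the 15 were at least 2-fold lower and 4 at least 2-fold higher. ERO1A, the oxidase that recharges the disulfide isomerases, had 28.4, 10.4 and 31.7 FPKM, and its paralog ERO1B had 1.58, 4.06 and 2.15 FPKM. P4HB, the most abundant isomerase of the list, had 379, 227.5 and 432 FPKM. PRDX4, an ER peroxidase, had the log2 ratio of L over E farthest from 0 in this list (-0.65).

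In glycan quality control, MCFD2, which with LMAN1 forms an ER export receptor, had 67.7, 30.4 and 77.4 FPKM. It was the only 1 of 7 genes at least 2-fold lower in P than in E, beside 6.80% of all genes. With the same sum over protein-coding genes, 0 of the 7 were at least 2-fold lower and 1 was at least 2-fold higher. GANAB, a subunit of glucosidase II, had a log2 ratio of -0.59 for P over E, and UGGT1, the folding sensor of glycoproteins, one of 0.36 for L over E. In ER-associated degradation, SELENOS (listed as VIMP), which recruits the extracting ATPase, had 59.2, 28.9 and 60.8 FPKM. It was the only 1 of 25 at least 2-fold lower in P, beside the same 6.80% of all genes. With the same sum over protein-coding genes, 0 of the 25 were at least 2-fold lower and 6 were at least 2-fold higher. AUP1, the most abundant of this list, had 95.1, 63.5 and 101 FPKM, and the lectin ERLEC1 had a log2 ratio of 0.38 for L over E. In this list 10 of the 25 genes were higher in P than in E and 15 were lower. Of all genes at 1 FPKM or more in both libraries, 47.9% were higher. Named after their values were seen, DERL3 had a log2 ratio of 0.71, UBE2J1 0.69, EDEM1 0.61 and HERPUD1 0.36. DERL2 (-0.56) and SYVN1 (-0.41) ran the other way, and each of these genes was below 2-fold.

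Most genes downstream of ATF4 and DDIT3 were lower in P as deposited, and those past 2-fold lay in both directions. Of the 30 measured, 24 were lower in P than in E, with a median log2 ratio of -0.36. Between L and P, 23 were higher in L, with a median of 0.42. Of all genes at 1 FPKM or more in both libraries, 52.1% and 52.2% ran these ways. At least 2-fold lower in P than in E were 4 (TRIB3, CHAC1, NUPR1 and CTH), and 2 were at least 2-fold higher (STC2 and GDF15). The shares of all genes were 6.80% and 10.9%. With the same sum over protein-coding genes, 6 of the 30 were lower in P than in E, 0 of them at least 2-fold, and 5 were at least 2-fold higher. CHAC1, a glutathione-degrading enzyme, had 4.03, 1.51 and 1.22 FPKM in E, P and L, with log2 ratios of -1.42 and -1.73 to E. NUPR1, a stress-induced chromatin protein and the most abundant of the list, had 301, 132 and 268 FPKM. SLC7A5, a transporter of large neutral amino acids, had 41.1, 22.0 and 53.8 FPKM, a log2 ratio of 1.29 for L over P. STC2, a secreted glycoprotein, had 0.190, 4.43 and 0.147 FPKM, so that its ratio rests on values below 1 FPKM in E and L. Between L and E, 3 of the 30 were at least 2-fold lower in L (CHAC1, CTH and GDF15) and 0 were at least 2-fold higher, beside 6.74% and 1.97% of all genes. GDF15 had only 0.291, 1.43 and 0.0807 FPKM in E, P and L, so its ratios also rest on values below 1 FPKM.

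Of the 13 genes for eIF2 and its kinases and exchange factor, 0 differed at least 2-fold in any comparison, beside 17.7%, 8.71% and 25.9% of all genes for P over E, L over E and L over P. With the same sum over protein-coding genes, 1 of the 13 was at least 2-fold higher in P than in E and 1 at least 2-fold lower in L than in P. EIF2S2, an eIF2 subunit and the most abundant, had 50.1, 36.0 and 50.6 FPKM. EIF2B2 had the log2 ratio of P over E farthest from 0 (-0.83), EIF2AK2 (PKR) that of L over E (-0.45), and PPP1R15B, a subunit of the eIF2 phosphatase, that of L over P (0.88). Among the relatives of ATF6 and their proteases, CREB3L1, a factor activated by the same cleavage, had 12.3, 6.98 and 21.5 FPKM, with log2 ratios of -0.82, 0.81 and 1.63 for P over E, L over E and L over P. CREB3L4 alone of the 10 measured was at least 2-fold lower in P than in E, beside 6.80% of all genes. With the same sum over protein-coding genes 0 of the 10 were at least 2-fold lower and 3 at least 2-fold higher. CREB3L2 was the most abundant of them with a mean of 30.8 FPKM. Of the 5 measured partners of ERN1, 3 were higher in P than in E and 2 lower, 0 of them at least 2-fold. With the same sum over protein-coding genes, 3 of the 5 were at least 2-fold higher in P. The most abundant was TMBIM6, a negative regulator of ERN1, with 226, 144 and 296 FPKM. MAP3K5, a kinase downstream of ERN1, had a log2 ratio of -0.45 for L over E.

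The cytosolic heat shock proteins gave a contrast to the ER chaperones between L and E. All 15 measured were lower in L than in E, none by 2-fold, with a median log2 ratio of -0.23, whereas all 4 ER chaperones were higher. Of all genes, 51.8% were lower in L among those at 1 FPKM or more in both, and 6.74% at least 2-fold. With libraries set to the same sum over protein-coding genes, 10 of the 15 were lower, and with the same sum over all loci 12. HSPA8, the most abundant, had 274, 240.3 and 189.9 FPKM in E, P and L. BAG3, an Hsp70 co-chaperone, had the log2 ratios of P over E (-0.65) and of L over E (-0.89) farthest from 0, and HSP90AA1 that of L over P (-0.50).

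**Figure D4:**
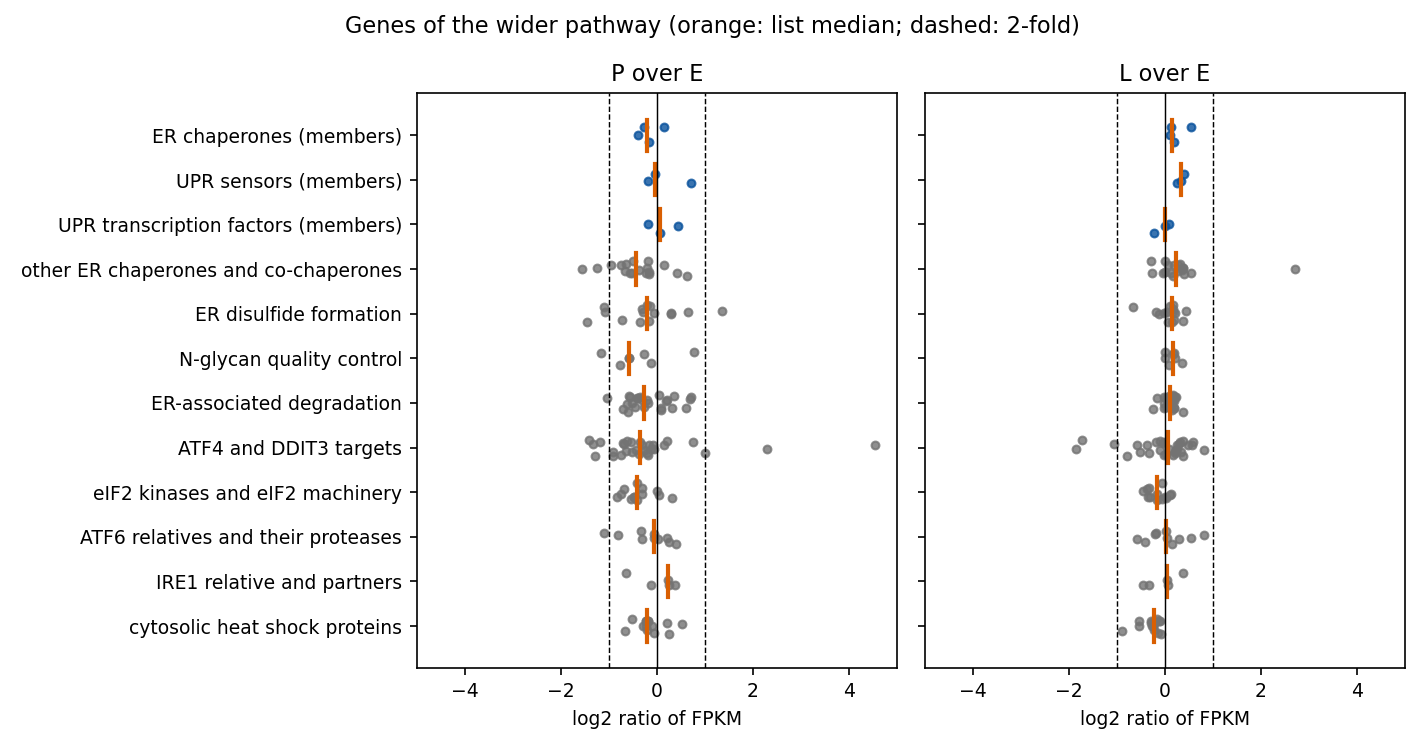
Log2 ratio of FPKM for P over E and L over E of each measured gene in 12 lists, with the 10 genes in blue, other genes in grey, the median of each list as an orange bar and dashed lines at 2-fold; points are shifted vertically for visibility only. The 15 cytosolic heat shock genes all lie left of 0 for L over E, and the 4 ER chaperones right of it.

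Over only 3 libraries many genes had a pattern like that of a given gene. Likeness was taken as the larger of the differences in the log2 ratios of P over E and L over E, among 6984 other protein-coding genes with at least 5 FPKM in every library. Within 0.1 of HSPA5 lay 339 genes, the nearest being CASD1, MAN2C1 and GNA13. Within 0.1 of ATF4 lay 505 genes (nearest NBN, TMEM87B and HEBP1), of DDIT3 206 (SF1, NCOA7 and DDX18), of EIF2AK3 147 (RABAC1, GNG12 and C14H8orf82) and of ATF6 69 (FKBP1A, MFAP5 and LYRM1). ERN1 had 23, the fewest of the 7 genes searched (HSPA5, the sensors and the transcription factors), with PHLDB1, LOC102176126 and NUDT14 nearest. The row listed as XBP1 had 128 among 6985 genes, with PTPN11, VPS13A and PPP2R2A nearest.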

How the data were processed

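RNA of 5 goats per stage was pooled into 3 libraries, 1 per stage. The authors trimmed the reads with Trimmomatic, mapped them with TopHat2 2.0.9, assembled transcripts with Cufflinks 2.1.1, merged them with Cuffmerge, and computed FPKM with Cuffdiff. The deposited table gives FPKM of 50041 loci, and its columns were assigned to stages by the sample labels. Of the deposited values with 7 or more digits, 95.9% to 99.4% per column ended in 5, as means of 2 values with 6 digits would, and whether they are means was not tested. The methods name a Capra hircus genome and a RefSeq assembly, but the deposited coordinates are on scaffolds with no assembly named beside them. Gene IDs were matched to the ARS1.2 gene table for symbols and neighbours only, and 15274 loci had a single gene ID. Loci of 1 gene ID were summed. Reads per locus, and therefore the depth behind a value, are unknown.

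Ratios were taken of FPKM as deposited, with 0 set to 0.001, and called at a fold of at least 2. No test was run. Fold counting was tested on simulated data. The members and gene lists were chosen with earlier results of these data known. Named were all 10 members and, from each other pathway list, the gene with the highest mean FPKM and, per comparison, the one with the largest log2 ratio among those that reached 1 FPKM in each library; other genes past 2-fold were named after their values were seen. Symbols such as SELENOS were also searched under an older name. Other settings were other folds, pseudocounts, a filter on low FPKM, the highest locus alone, 4 scalings, and exchange of the columns labelled peak and late. No sequences were analysed here. Python 3.11.15, numpy 2.4.6, pandas 2.3.3 and matplotlib 3.10.9 were used.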

Additional observations from a re-analysis of the deposited data

How the results depend on the processing

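Leaving out a replicate was not possible with single libraries. No paired analysis was possible because the RNA of the goats was pooled within each stage. The number of the 10 genes at least 2-fold apart was 0 in each comparison, and it moved under 2 settings. At a fold of at least 1.5 it was 1 between P and E (ERN1, beside 36.8% of all protein-coding genes) and 1 between L and P (PDIA4, beside 44.0%), by construction of the lower threshold. With the same sum over protein-coding genes it was 2 between P and E and 2 between L and P, ERN1 and the row listed as XBP1 in both, and the cause was not tested. That scaling shifts all genes alike, and the share of all genes past 2-fold under it is not given here. The number stayed at 0 with a fold of at least 4, pseudocounts of 0.1 and 1, at least 1 FPKM in both libraries, the highest locus alone, ratios centred on their median, the same sum over all loci, the same upper quartile, exchanged columns and, chosen after seeing the data, only genes with a locus of their own. Single log2 ratios were the same under 30 of 210 alternatives, those with the highest locus alone, and moved in the other 180, where any change counted as moved since there is no replicate spread. Sums of cell markers of 2 lists were also taken without their most abundant gene, chosen after seeing the data: the plasma cell sum for P over E went from 1.81 to 3.08 without JCHAIN, and the luminal sum from below 1 to 1.15 without ELF5. The pseudocounts and the centring turned no direction.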

Other observations

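Unannotated loci, which have an assembly number but no gene ID, were deposited beside some of the 10 genes. Within 30000 nt and before the next entry with a gene ID there were 3 beside PDIA4, 2 each beside CALR, ERN1 and the row listed as XBP1, 1 each beside HSPA5 and HSP90B1 and 0 beside the others. Both loci beside ERN1 had their highest value in P, as ERN1 had. This was not particular to ERN1. The loci beside HSP90B1 and the row listed as XBP1 were also highest in P, and so were all 3 beside PDIA4, although PDIA4 itself was lowest in P. The loci beside HSPA5 and CALR were highest in E, while these genes were highest in L. XLOC_038951, on scaffold NW_005100886.1 from 24049557 to 24060210 and 3070 nt from ERN1, had 2.21, 3.99 and 2.16 FPKM in E, P and L. XLOC_038952, from 24060298 to 24075214, had 2.83, 5.95 and 2.44 FPKM, a log2 ratio of 1.07 for P over E. XLOC_010411, 227 nt from HSP90B1, had 4.62, 6.87 and 2.93 FPKM. Whether these loci belong to transcripts of the neighbouring genes was not tested.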
